A study of Mus musculus with 18 samples.

Results

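The genes described here are 8 genes by which astrocytes take up glutamate, turn it over and keep the fluid around neurons constant: Slc1a2, Slc1a3, Glul, Glud1, Aldoc, S100b, Slc4a4 and Aqp4. Their probe sets were taken from the array annotation, keeping those whose only gene symbol was one of the 8. The annotation used here gave Slc1a3 no probe set, so 7 of the 8 genes were measured, by 10 of the array's 12488 probe sets. Of the 10833 probe sets with a single symbol, these 10 stood among 8251 genes. Of the 10, 9 passed the filter on low signal, and they covered all 7 genes. The exception was the Glud1 probe set 162364_f_at, whose signal ran from 3.04 to 25.5 and lay under the floor of 9.46 on 6 of 18 arrays.

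The arrays came from 6 mice. The 3 KO mice were homozygous for loss of Aldh5a1 (Aldh5a1-/-), the gene of succinate semialdehyde dehydrogenase, which completes the breakdown of GABA in mitochondria, and the other 3 were wild type. Hippocampus, cerebellum and cortex of each mouse were hybridised separately, for 18 arrays in 6 groups of 3. Mice on the KO side bear the numbers 3363, 3389 and 3403 and those on the WT side 3405, 3406 and 3396, and the labels give neither their age nor a further treatment. Aldh5a1 had 0 probe sets assigned to it, so genotype rests on the labels. Each value is the scaled intensity of a probe set, called signal here, and the number of arrays limits its precision. Median signal per array was 53.5 to 64.8. All 18 arrays lay nearest to other arrays of the region they are labelled with, 7 of 7 kept cerebellar marker genes were higher in WT cerebellum than in either other region, and all 9 kept probe sets of the members lay above the floor on 18 of 18 arrays.

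Astrocytes surround synapses and remove the glutamate that neurons release. Slc1a2 and Slc1a3 encode the main glial carriers for this uptake. Inside the astrocyte, glutamine synthetase (Glul) joins glutamate with ammonia to form glutamine, which is returned to neurons, while glutamate dehydrogenase (Glud1) feeds glutamate carbon into the mitochondrial citric acid cycle. Glutamine made this way is a precursor of neuronal GABA, so these genes lie upstream of the pathway in which Aldh5a1 acts. Aldoc encodes the brain aldolase of glycolysis, S100b a calcium-binding protein, Slc4a4 a sodium bicarbonate cotransporter that sets pH, and Aqp4 the water channel of astrocyte endfeet. The specialised astrocytes of the cerebellum, the Bergmann glia, ensheath Purkinje cell synapses.

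Because several of these genes shared a regional pattern across arrays (below, 4 genes highest in cerebellum, and Slc1a2 and Glul lowest there, in WT), the bases just before their annotated start sites are shown for comparison. They are the 250 bases upstream of a RefSeq transcript start on GRCm38.p6, 5′ to 3′ on the gene's strand. S100b, Aldoc and Slc4a4 stand for the genes with more signal in cerebellum, and Glul and Slc1a2 for those with less. For Slc4a4 and Slc1a2 the window belongs to a start inside the annotated gene, and for the other genes to the gene's first start. Capitals mark 4 short motifs, searched on both strands: the TATA box TATAAA, the CCAAT box CCAAT, the GC box GGGCGG and TTGGCA, a half-site of the NFI factors that act in astrocyte development.
S100b, chr10:76253586-76253835, + strand: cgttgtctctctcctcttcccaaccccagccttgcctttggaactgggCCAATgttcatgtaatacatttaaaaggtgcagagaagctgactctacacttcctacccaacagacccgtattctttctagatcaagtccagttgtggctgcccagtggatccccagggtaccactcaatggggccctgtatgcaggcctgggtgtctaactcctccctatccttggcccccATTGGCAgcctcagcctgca
Aldoc, chr11:78322823-78323072, + strand: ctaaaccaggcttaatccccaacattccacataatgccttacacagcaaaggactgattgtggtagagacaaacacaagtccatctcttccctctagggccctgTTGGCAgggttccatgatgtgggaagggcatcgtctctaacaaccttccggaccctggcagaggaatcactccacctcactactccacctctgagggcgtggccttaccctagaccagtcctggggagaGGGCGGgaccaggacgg
Slc4a4, chr5:88887010-88887259, + strand: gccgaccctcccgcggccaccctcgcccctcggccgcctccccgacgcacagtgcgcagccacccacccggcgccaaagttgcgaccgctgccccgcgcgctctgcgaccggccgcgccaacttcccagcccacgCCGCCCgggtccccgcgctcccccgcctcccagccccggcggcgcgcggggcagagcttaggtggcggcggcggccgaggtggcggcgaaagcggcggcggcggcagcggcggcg
Glul, chr1:153899679-153899928, + strand: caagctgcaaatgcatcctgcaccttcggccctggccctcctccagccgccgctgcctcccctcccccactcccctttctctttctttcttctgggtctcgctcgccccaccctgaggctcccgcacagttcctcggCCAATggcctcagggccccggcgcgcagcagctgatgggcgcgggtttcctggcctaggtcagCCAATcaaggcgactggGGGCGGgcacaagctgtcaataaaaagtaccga
Slc1a2, chr2:102706188-102706437, + strand: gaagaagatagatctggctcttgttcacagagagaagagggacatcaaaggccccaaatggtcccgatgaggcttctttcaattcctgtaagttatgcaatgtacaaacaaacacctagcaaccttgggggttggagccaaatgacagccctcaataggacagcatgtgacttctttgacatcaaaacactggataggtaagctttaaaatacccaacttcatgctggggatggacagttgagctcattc
The S100b window held CCAAT at position -202 from the start site, and CCAAT on the other strand at -20, whose letters overlap a TTGGCA at -19. The Aldoc window held TTGGCA at -146 and GGGCGG at -17. In the Slc4a4 window, 82% of whose bases are G or C, GGGCGG stood on the other strand at -115. RefSeq gives Aldoc and Slc4a4 a further start each, whose windows are not printed: that of Aldoc held none of the 4 motifs, and that of Slc4a4, with 48.8% G or C, held CCAAT on the other strand at -26. Glul held CCAAT at -113 and -50 and GGGCGG at -33, and the Slc1a2 window, with 44.8% G or C, held none of the 4 motifs. Among all 32851 windows of this length, TATAAA occurred in 12.4%, CCAAT in 33.8%, GGGCGG in 32.7% and TTGGCA in 12.3%. A match is a description of the letters and says nothing about binding.

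The loci of these genes, in the same annotation, are chromosome 1, 153899929 to 153909723, for Glul; chromosome 2, 102658239 to 102790784, for Slc1a2; chromosome 5, 88793858 to 89239656, for Slc4a4; chromosome 10, 76253836 to 76261319, for S100b; chromosome 11, 78323073 to 78327781, for Aldoc; and chromosome 14, 34310727 to 34345033, for Glud1. The array design is older than this annotation, and where in each transcript the probes lie was not examined. Of the probe set suffixes, _s marks probes that can read several transcripts, _r a set chosen under relaxed rules and _f one that can read a gene family. Signals of different probe sets cannot be set against each other as amounts of RNA, so levels are compared only within a probe set.

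The first comparison asked how these genes are distributed over the regions of the WT brain. S100b, Aqp4, Slc4a4 and Aldoc had more signal in cerebellum than in hippocampus and cortex, by 1.58- to 3.24-fold across their probe sets, and Slc1a2 had less. Glul had less in cerebellum than in cortex by both probe sets. No member was called between hippocampus and cortex. Over the 3 WT regions, limma's moderated F test called 8 of 9 member probe sets, against 44% of all 8382 probe sets tested, so differences between regions were common on the array at large. Without mouse 3405 the count was 5, and the counts called between pairs of WT regions, given next, were 3 against hippocampus and 5 against cortex. The shares of all probe sets called between WT regions without that mouse are not given here. The 44% and the shares given next belong to the fit with all animals. In these tissue extracts, fewer cells of a type and less RNA per cell cannot be told apart.

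S100b, the calcium-binding protein, was higher in WT cerebellum than in either forebrain region. Its signal in WT cerebellum was 636, 999 and 640 in mice 3405, 3406 and 3396. In WT hippocampus it was 267, 265 and 221, and in WT cortex 249, 279 and 199. All 3 cerebellar arrays lay above every forebrain array, as was so for 13.9% of all probe sets in WT and 15.9% in KO. The log2 difference was 1.57 ± 0.18 (SE) against hippocampus (limma, adjusted p = 2.01e-06) and 1.63 ± 0.18 against cortex (limma, adjusted p = 1.14e-06), or 2.96- and 3.09-fold. In WT, 6 of 9 member probe sets were called between cerebellum and hippocampus, 5 higher and 1 lower in cerebellum, against a background of 29.1% of all probe sets (13.9% higher and 15.2% lower). Between cerebellum and cortex 8 of 9 were called, 5 higher and 3 lower, against 40.8% (17.8% higher and 23% lower). The median log2 difference of the 9 was 0.83 and 0.66 in these comparisons, beside -0.05 and -0.07 for all probe sets.

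Aldoc, the glycolytic member, read 3641, 4017 and 4140 in WT cerebellum. WT hippocampus gave 2306, 2317 and 2022, and WT cortex 2759, 2326 and 2405. The cerebellar arrays again lay apart from all others, although the step was smaller than for S100b: 0.83 ± 0.094 against hippocampus (limma, adjusted p = 1.64e-06) and 0.66 ± 0.094 against cortex (limma, adjusted p = 2.43e-05). Aldolase C is also known from stripes of Purkinje cells, which are neurons. The marker list for neurons in general had its summed signal between 8984 and 10192 in WT cerebellum. It was between 10772 and 11810 in WT hippocampus and between 12492 and 13426 in WT cortex. Slc1a6, the carrier of Purkinje cells, averaged 955 in WT cerebellum, 71.0 in WT hippocampus and 44.0 in WT cortex. The part of Purkinje cells or other neurons in the Aldoc signal was not tested.

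Aqp4 was read by 2 probe sets that moved together, with a Pearson correlation of 0.965 across the 18 arrays and 0.925 after group means were removed, as a description of arrays that share regions and animals. By 102704_at its signal was 1434, 1199 and 1085 in WT cerebellum, 642, 765 and 437 in WT hippocampus and 361, 580 and 418 in WT cortex. No cerebellar value fell within the range of the other regions. The differences from hippocampus were 1.04 ± 0.29 and, by 102703_s_at, 1.30 ± 0.29 (limma, adjusted p = 0.0102 and 0.00202). From cortex they were 1.47 ± 0.29 and 1.70 ± 0.29 (limma, adjusted p = 0.000546 and 0.000143). The order cerebellum, hippocampus, cortex appeared in the means of both probe sets, but the step from hippocampus to cortex, 0.43 and 0.39, did not pass (limma, adjusted p = 0.362 and 0.414). Without mouse 3405 or mouse 3396 the call against hippocampus by 102704_at was lost (0.98, limma adjusted p = 0.0742, and 0.90, limma adjusted p = 0.0748).

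Slc4a4, the bicarbonate carrier, was the most uneven member within WT cerebellum. Its signal there was 344 in mouse 3405, 220 in 3406 and 121 in 3396. WT hippocampus gave 110, 138 and 93.3, so 3396 lay within the hippocampal range, and WT cortex gave 71.6, 103 and 108. The difference was 0.90 ± 0.28 against hippocampus (limma, adjusted p = 0.0207) and 1.17 ± 0.28 against cortex (limma, adjusted p = 0.00279). Both calls rested on mouse 3405: without it the differences were 0.52 and 0.63 (limma, adjusted p = 0.211 and 0.1002). The call against hippocampus was also lost without mouse 3406 (1.01, limma adjusted p = 0.0608) and with no filter (limma, adjusted p = 0.0640).

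Slc1a2, the uptake carrier, ran the other way. Its probe set, 96202_at, was dim, from 35.3 to 110 over the 18 arrays, where the median signal per array was 53.5 to 64.8. How well this probe set reads the carrier's mRNA was not tested. The signal was 35.3, 90.5 and 54.1 in WT cerebellum. WT hippocampus gave 107, 101 and 74.0, and WT cortex 82.7, 100.4 and 108. Mice 3405 and 3396 were low in cerebellum, but mouse 3406 was not, and the groups overlapped. The difference was -0.74 ± 0.25 against hippocampus (limma, adjusted p = 0.0330) and -0.79 ± 0.25 against cortex (limma, adjusted p = 0.0172). The call against hippocampus held under 7 of 13 alternatives, and was lost under median scaling (-0.62, limma adjusted p = 0.0542), with no filter (limma, adjusted p = 0.0735) and, at the same difference, without KO mouse 3363 or 3389 (limma, adjusted p = 0.0524 and 0.0527). Without mouse 3405 the differences were -0.31 and -0.57, and neither was called (limma, adjusted p = 0.429 and 0.0928). Without mouse 3396 they were -0.88 and -0.69, again not called (limma, adjusted p = 0.0528 and 0.1005).

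Glul, the glutamine-forming enzyme, had 2 probe sets that correlated weakly over the arrays (0.282) and negatively within groups (-0.364), so each is given by name. By 94852_at the signal was 285, 291 and 279 in WT cerebellum, a narrow range, 501, 344 and 465 in WT hippocampus and 457, 368 and 573 in WT cortex. By 161826_r_at it was 159, 162 and 220 in cerebellum, 243, 278 and 231 in hippocampus and 435, 304 and 346 in cortex. By both, all cerebellar arrays lay below all others, as for 15.1% of all probe sets in WT. Cerebellum was below cortex by -0.69 ± 0.22 and -1.004 ± 0.18 (limma, adjusted p = 0.0204 and 0.000251). Against hippocampus the differences of -0.60 and -0.48 missed the threshold (limma, adjusted p = 0.0517 and 0.0514) and passed with the animal as a replicate block (adjusted p = 0.0340 and 0.0419). By 94852_at the call against cortex was lost under median scaling (-0.51, limma adjusted p = 0.0869), with no filter (limma, adjusted p = 0.0569), without mouse 3405 (-0.69, limma adjusted p = 0.0915) and without mouse 3396 (-0.51, limma adjusted p = 0.172).

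Glud1, the glutamate-oxidising enzyme, was the member with no called difference between WT regions. Its signal by 92586_at was 505, 395 and 308 in cerebellum, 565, 397 and 433 in hippocampus and 421, 561 and 477 in cortex. The 3 ranges overlapped (moderated F test in limma, adjusted p = 0.404). Between WT hippocampus and cortex 0 of 9 member probe sets were called by limma, 1 at an unadjusted p under 0.05 and 0 with the replicate block, against backgrounds of 12.5% called and 26.8% at the unadjusted level. Both backgrounds belong to the fit without the block.

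**Figure D1:**
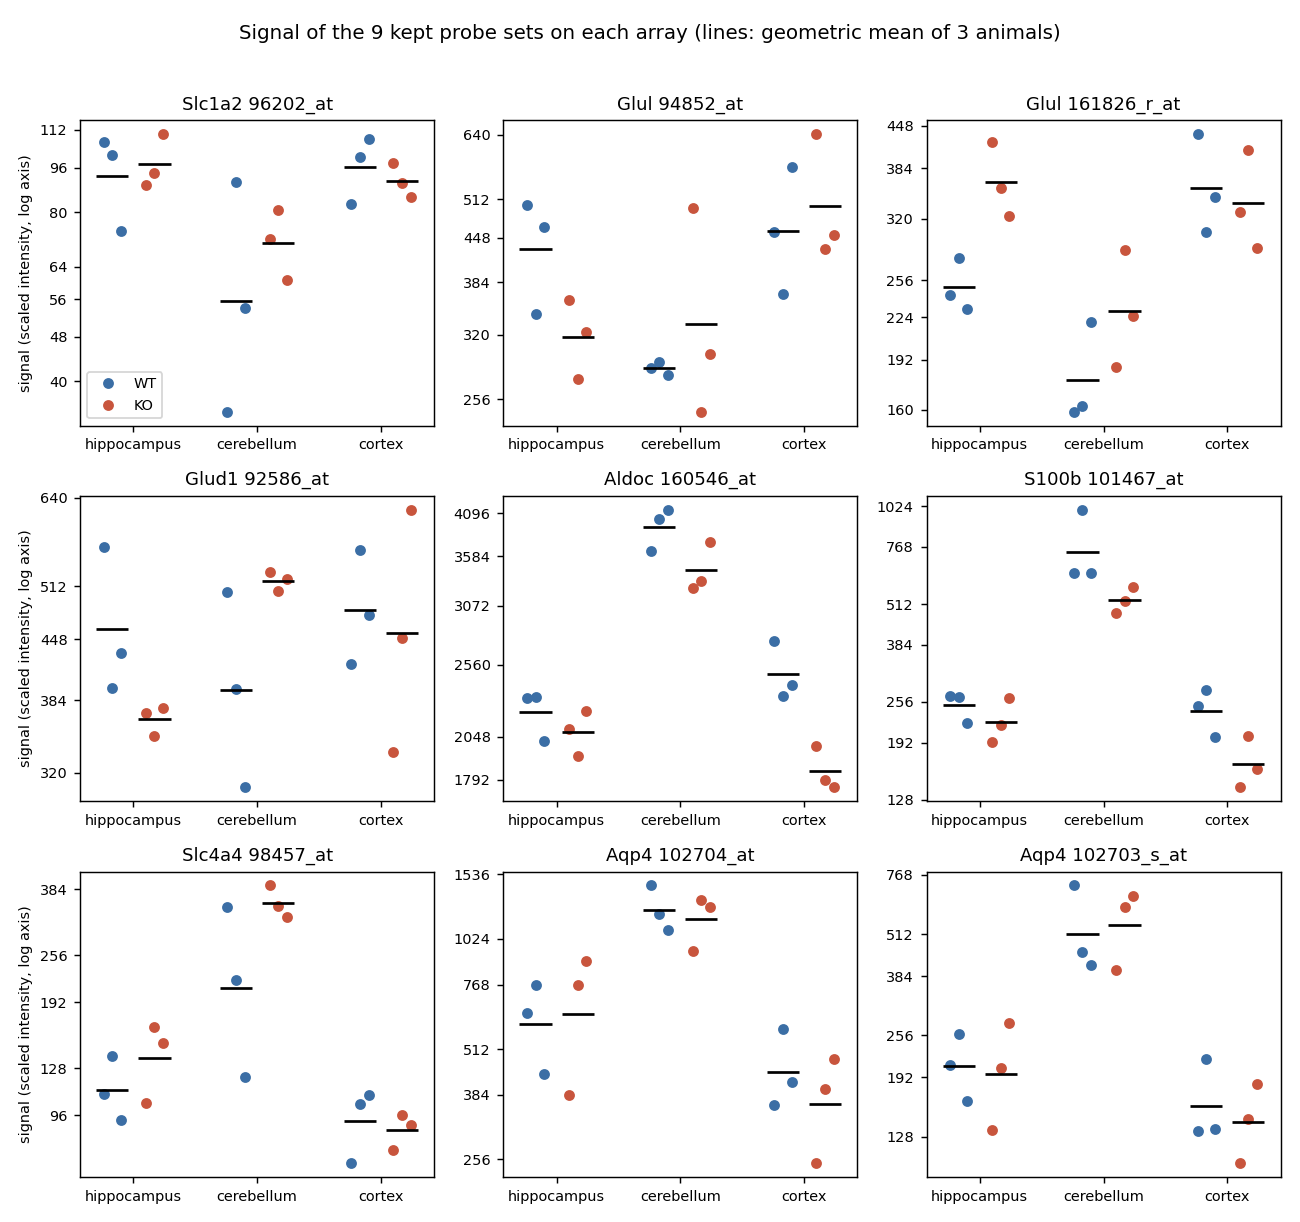
Signal of the 9 kept probe sets (log axis) in hippocampus, cerebellum and cortex, each point 1 array, blue for WT and red for KO, with a line at the geometric mean of 3 animals. S100b, Aldoc and both Aqp4 probe sets stand highest in cerebellum in both genotypes, Glul 161826_r_at stands lowest there, and WT mouse 3405 is the lowest Slc1a2 point at 35.3.

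The same regional comparisons were made in the KO mice, which are different animals. The moderated F test in limma called 7 of 9 member probe sets over the KO regions, against 46.1% of all. Between pairs of regions, 7 were called between KO cerebellum and hippocampus, 6 higher and 1 lower, against 38% of all probe sets (17.8% higher and 20.2% lower), and 4 without mouse 3363. The 38% belongs to the fit with all animals, and the share without mouse 3363 is not given here. Between KO cerebellum and cortex 7 were called, 5 higher and 2 lower, against 36.8% (17.9% and 18.9%). S100b, Aldoc, Slc4a4 and Aqp4 were higher in cerebellum in both comparisons. S100b differed by 1.24 ± 0.18 from hippocampus and 1.68 ± 0.18 from cortex (limma, adjusted p = 2.83e-05 and 7.90e-07). Slc4a4 differed by 1.37 ± 0.28 and 2.01 ± 0.28 (limma, adjusted p = 0.000773 and 1.54e-05). Its 4.02-fold difference between KO cerebellum and KO cortex was the widest of any member and pair of regions.

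In KO cerebellum Slc4a4 read 393, 346 and 324 in mice 3363, 3389 and 3403. KO hippocampus gave 103, 165 and 149 and KO cortex 77.6, 96.2 and 90.7, so that here, unlike in WT, no cerebellar array came near the others. Both Slc4a4 calls in KO tissue held under 13 of 13 alternatives. Aldoc differed by 0.72 ± 0.094 and 0.90 ± 0.094 (limma, adjusted p = 7.66e-06 and 5.34e-07), and its calls too, like those of S100b, held under all 13 in both genotypes.

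Aqp4 in KO tissue was again highest in cerebellum, with 950, 1311 and 1249 by 102704_at, beside 383, 768 and 893 in hippocampus and 250.3, 398 and 482 in cortex. The differences were 0.86 ± 0.29 and 1.67 ± 0.29 (limma, adjusted p = 0.0248 and 0.000154). That against hippocampus was not called without mouse 3363 (0.63, limma adjusted p = 0.0616), without mouse 3389 (0.90, limma adjusted p = 0.0817) or with no filter (limma, adjusted p = 0.0786), whereas by 102703_s_at the difference of 1.47 held under 13 of 13 alternatives. Glul by 161826_r_at was lower in KO cerebellum than in hippocampus by -0.67 ± 0.18 and than in cortex by -0.57 ± 0.18 (limma, adjusted p = 0.00649 and 0.0199), but neither was called without mouse 3363 (-0.42 and -0.44, limma adjusted p = 0.160 and 0.146). By 94852_at Glul was lower than in cortex by -0.59 (limma, adjusted p = 0.0442), which held under 6 of 13 alternatives and was lost without mouse 3389 (-0.48), 3403 (-0.59), 3405 or 3396 (limma, adjusted p = 0.166, 0.154, 0.0632 and 0.0514). The KO cerebellar value of mouse 3363, 497, lay within the cortical range. Against KO hippocampus Glul by 94852_at differed by 0.06 ± 0.22 and was not called (limma, adjusted p = 0.845). Its sign there was opposite to that of 161826_r_at. Glud1 was higher in KO cerebellum than in KO hippocampus by 0.50 ± 0.19 (limma, adjusted p = 0.0474), which also held under 6 of 13 and was lost without any 1 of the KO mice or without mouse 3406 (0.49 to 0.52, limma, adjusted p = 0.0580 to 0.167).

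Slc1a2 differed by -0.47 ± 0.25 and -0.37 ± 0.25 in KO tissue and was not called (limma, adjusted p = 0.150 and 0.264), although its KO cerebellar values of 71.6, 80.7 and 60.6 lay, as for 17.3% of all probe sets in KO, below all values of KO hippocampus (89.5, 93.9 and 110) and KO cortex (97.8, 90.2 and 85.3). Between KO hippocampus and KO cortex 0 of 9 were called by limma, 4 at an unadjusted p under 0.05, against backgrounds of 12.9% and 26.7%. With the animal as a replicate block 2 were called: Glul 94852_at, lower in hippocampus by -0.66 (adjusted p = 0.0386), and Aqp4 102704_at, higher by 0.82 (adjusted p = 0.0445). The share of all probe sets called with the block is not given here.

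**Figure D2:**
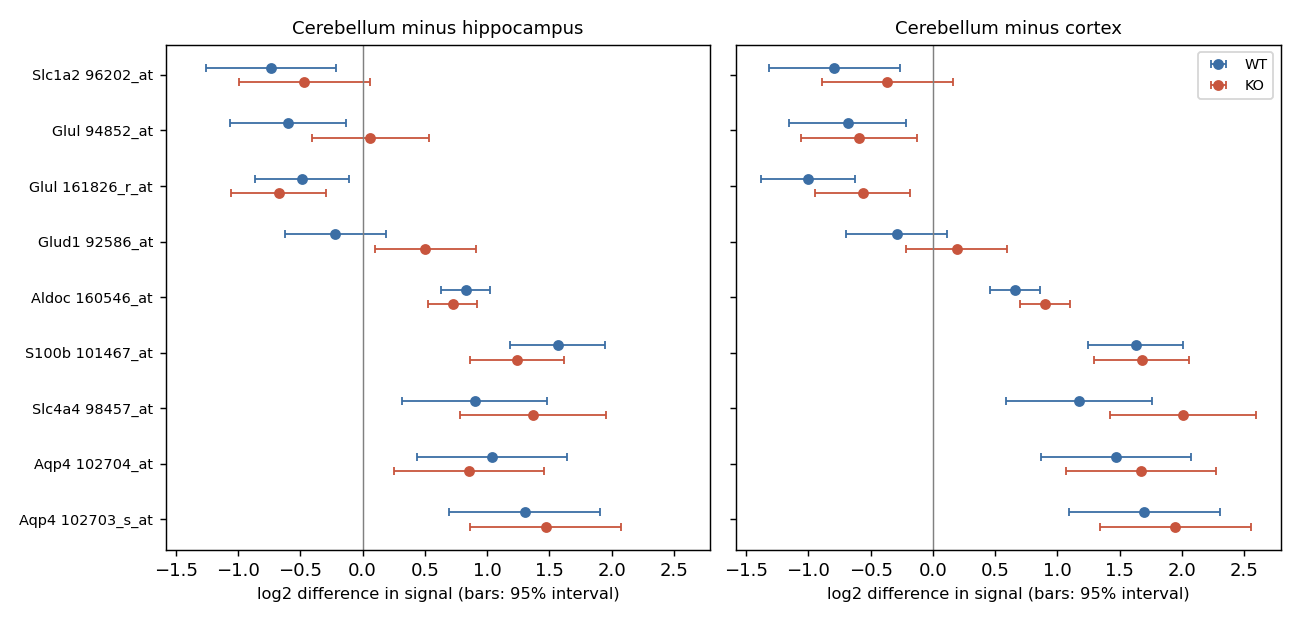
Log2 difference in signal between cerebellum and hippocampus (left) and cerebellum and cortex (right) for the 9 kept probe sets, in WT (blue) and KO (red), with bars for the 95% interval of the limma fit. S100b, Aldoc, Slc4a4 and Aqp4 lie above 0 in both genotypes and both panels, and Slc1a2 and Glul 161826_r_at below 0.

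The main comparison of the study, KO against WT within a region, called 0 of 9 member probe sets in hippocampus, cerebellum or cortex by limma. At an unadjusted p under 0.05 there were 1, 2 and 2, where 8.41%, 12.1% and 10.2% of all probe sets reached that level. Few probe sets of the array were called at all: 0.119% in hippocampus, 0.0358% in cerebellum and 0.286% in cortex. The median log2 difference of the members was -0.07, 0.22 and -0.09 in the 3 regions, beside 0.02, 0.03 and 0.0024 for all probe sets. The lowest adjusted p were those of Aldoc in cortex and S100b in cerebellum and cortex, all lower in KO, and of Slc4a4, higher in KO cerebellum.

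Aldoc in cortex had the lowest. Its signal was 1989, 1793 and 1751 in the KO mice 3363, 3389 and 3403, against 2759, 2326 and 2405 in the WT mice 3405, 3406 and 3396. Every KO value lay below every WT value, as was so for 7.18% of all probe sets in cortex. The difference was -0.44 ± 0.094, or 1.35-fold lower in KO, with a 95% interval of -0.63 to -0.24 (limma, adjusted p = 0.0578). It passed under quantile normalization (-0.39, limma adjusted p = 0.0463) and with the 60th percentile filter (limma, adjusted p = 0.0499), and the adjusted p ran from 0.0463 to 0.349 over all 14 alternatives.

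In cerebellum Aldoc gave 3249, 3323 and 3748 in KO against 3641, 4017 and 4140 in WT, with overlap, and a difference of -0.19 ± 0.094 (limma, adjusted p = 0.426). In hippocampus, with 2095, 1932 and 2221 against 2306, 2317 and 2022, it was -0.09 ± 0.094 (limma, adjusted p = 0.826). Averaged over the regions of each animal, Aldoc was lower in KO by -0.24 ± 0.057 with no overlap between genotypes, as for 7.02% of all probe sets with KO below WT (limma, adjusted p = 0.234), and the mean of the regions called 0 of 9 member probe sets, 4 at an unadjusted p under 0.05, against 0.179% and 10.1% of all.

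S100b was lower in the KO mean in each region and passed in none. In cerebellum the KO values of 481, 522 and 579 all lay below the WT values of 636, 999 and 640 (so for 7.8% of all probe sets), and the difference was -0.50 ± 0.18 (limma, adjusted p = 0.270). In cortex KO gave 140, 200.4 and 159 and WT 249, 279 and 199, which overlapped at one array, and the difference was -0.54 ± 0.18 (limma, adjusted p = 0.280). In hippocampus, with 193, 217 and 264 against 267, 265 and 221, it was -0.17 ± 0.18 (limma, adjusted p = 0.828).

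Over the mean of the regions S100b was lower by -0.40 ± 0.12, or 1.32-fold, with no overlap of the 3 KO and 3 WT animals, again as for 7.02% of all (limma, adjusted p = 0.351). A KO mean below WT in all 3 regions was seen for 12.9% of all probe sets, and S100b and Aldoc were the 2 member genes of which it was true. The order was kept for both under quantile normalization and median scaling.

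S100b is known in oligodendrocytes as well as astrocytes. All 8 kept genes of the fixed oligodendrocyte list were lower in KO cortex and hippocampus, and 2 were above 0 in cerebellum. Called were 6 in cortex, 3 in hippocampus and 0 in cerebellum, against 0.286%, 0.119% and 0.0358% of all probe sets. The median differences of the 8 genes were -1.35, -1.06 and -0.18 in the same order. Their summed signal was 3537 to 4502 in KO cortex against 6887 to 8935 in WT cortex, 4220 to 5397 against 6446 to 9947 in hippocampus, and 8061 to 8633 against 8926 to 10204 in cerebellum. S100b differed by -0.54 in cortex, -0.17 in hippocampus and -0.50 in cerebellum, each ± 0.18 and none called. The part of oligodendrocyte RNA in the S100b and Aldoc values was not tested. The neuron list had a median of -0.17 in cortex and -0.26 in cerebellum, with 0 called. The ratio of the 3′ to the 5′ Gapdh control probe set was 0.804 ± 0.0077 (SD, n = 3) in KO cortex and 0.903 ± 0.020 in WT cortex. That of actin was 1.77 ± 0.12 in KO cortex and 1.77 ± 0.14 in WT cortex. It was 1.33 and 1.30 in KO and WT hippocampus, and 1.36 and 1.28 in KO and WT cerebellum. The part of these ratios in the cortical values and in the differences between regions was not tested.

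Slc4a4 was higher in KO cerebellum, at 393, 346 and 324, than in WT cerebellum, at 344, 220 and 121. The KO values were close together and the WT values far apart, with mouse 3405 inside the KO range. The difference was 0.75 ± 0.28, or 1.69-fold, and did not pass (limma, adjusted p = 0.270). Without mouse 3405 it was 1.11 and was called (limma, adjusted p = 0.0424), in a fit that called 121 probe sets in all. Over the alternatives the adjusted p ran from 0.0424 to 0.703. Choroid plexus markers also varied over these arrays: the summed signal of the 3 kept markers was 1199, 338 and 1469 in KO cerebellum and 51.3, 103 and 1275 in WT cerebellum. All 3 markers were above 0 for KO minus WT there, like Slc4a4, with a median of 1.76 and 0 called, while among the WT arrays mouse 3396 had the most marker signal and the least Slc4a4. The part of choroid plexus RNA in the Slc4a4 values was not tested.

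In hippocampus Slc4a4 gave 103, 165 and 149 in KO against 110, 138 and 93.3 in WT, a difference of 0.28 ± 0.28 (limma, adjusted p = 0.817). In cortex the values of 77.6, 96.2 and 90.7 against 71.6, 103 and 108 differed by -0.08 ± 0.28 (limma, adjusted p = 0.958). The mean of the regions was higher in KO by 0.32 ± 0.13, with no overlap between animals, as for 8.59% of all probe sets with KO above WT (limma, adjusted p = 0.437).

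Slc1a2 did not pass in any region. KO hippocampus, at 89.5, 93.9 and 110, overlapped WT at 107, 101 and 74.0, and the difference was 0.07 with a 95% interval of -0.45 to 0.59 (limma, adjusted p = 0.956). In cortex it was -0.08, with an interval of -0.61 to 0.44 (limma, adjusted p = 0.951). In cerebellum KO values of 71.6, 80.7 and 60.6 lay within the WT range of 35.3 to 90.5, and the difference was 0.34 with an interval of -0.18 to 0.86 (limma, adjusted p = 0.625). These intervals are wide on both sides of 0, and do not show that the carrier's mRNA was alike in the genotypes.

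The Glul probe sets gave opposite signs in hippocampus. By 161826_r_at the KO values of 423, 357 and 323 all exceeded the WT values of 243, 278 and 231, a difference of 0.55 ± 0.18 (limma, unadjusted p = 0.00702, adjusted p = 0.417). By 94852_at the KO values of 361, 274 and 323 lay mostly below the WT values of 501, 344 and 465, a difference of -0.44 ± 0.22 (limma, adjusted p = 0.622). Neither passed, and no direction for Glul in hippocampus can be read from the pair. Groups that did not overlap were seen for 17.3% of all probe sets in hippocampus.

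In cerebellum the Glul differences were 0.22 and 0.36 by 94852_at and 161826_r_at, and in cortex 0.13 and -0.08, with adjusted p of 0.742, 0.441, 0.907 and 0.934 by limma. The KO mouse 3363 was the highest of its group by 94852_at in all 3 regions, with 361, 497 and 641 in hippocampus, cerebellum and cortex.

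Glud1 differed in opposite directions in hippocampus and cerebellum. In hippocampus the KO values of 371, 351 and 376 lay below the WT values of 565, 397 and 433, by -0.33 ± 0.19 (limma, adjusted p = 0.679). In cerebellum the KO values of 531, 505.3 and 522 lay just above the WT values of 504.6, 395 and 308, by 0.40 ± 0.19 (limma, adjusted p = 0.427). In cortex the groups overlapped and the difference was -0.09 (limma, adjusted p = 0.931). KO values in hippocampus and cerebellum were close together, with SDs of 13.4 and 13.1, against 88.6 and 98.4 in WT. Groups that did not overlap were seen for 15.3% of all probe sets in cerebellum.

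Aqp4 did not pass in any region by either probe set. By 102704_at the differences were 0.10, -0.09 and -0.29 in hippocampus, cerebellum and cortex, each ± 0.29 (limma, adjusted p = 0.947, 0.930 and 0.798). By 102703_s_at they were -0.07, 0.09 and -0.15. Their signs differed between the probe sets in hippocampus and cerebellum. Mouse 3363 weighed on these values: without it the differences by 102704_at were 0.47, 0.06 and -0.02, and by 102703_s_at 0.21, 0.32 and 0.05.

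**Figure D3:**
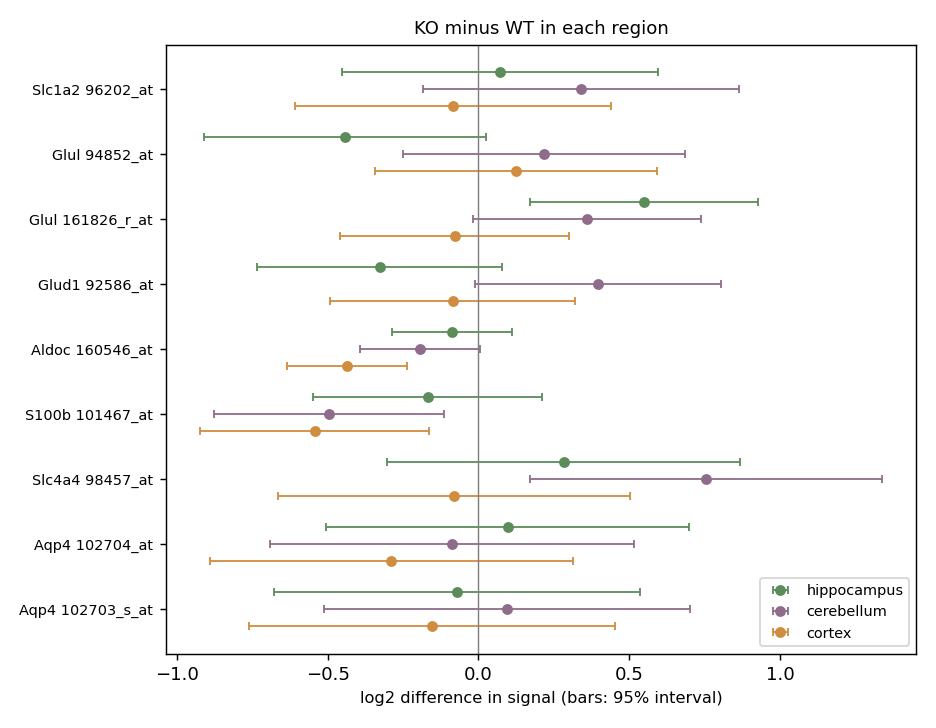
Log2 difference in signal between KO and WT for the 9 kept probe sets in hippocampus, cerebellum and cortex, with bars for the 95% interval of the limma fit before adjustment over probe sets. Most intervals include 0, the narrowest belong to Aldoc, and the Glul probe sets lie on opposite sides of 0 in hippocampus.

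Whether KO minus WT differed between regions was tested by a moderated F test of the interaction in limma, which called 0 of 9 member probe sets, 1 at an unadjusted p under 0.05 (Glud1), against 0.0477% of all probe sets called and 9.01% at the unadjusted level. Glud1 had an adjusted p of 0.551, Aldoc 0.555, the Glul probe sets 0.632 and 0.576, Slc4a4 0.653, S100b 0.768, Slc1a2 0.849 and Aqp4 0.900 and 0.958. For Slc4a4, KO minus WT in cerebellum exceeded that in cortex by 0.84 ± 0.39 (limma, adjusted p = 0.501).

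Within groups, single animals stood apart in several members at once. KO mouse 3363 had the least Aqp4 of the KO mice in hippocampus, cerebellum and cortex by both probe sets, with 102704_at below its group mean by -0.74, -0.29 and -0.54 on the log2 scale. It also had the least S100b of the KO mice in the 3 regions (-0.21, -0.13 and -0.24). For Glul 94852_at it was the highest (0.19, 0.58 and 0.36). Mouse 3403 had more Aqp4 than its group mean in each region (0.48, 0.11 and 0.41), and among WT mice 3396 had less (-0.45, -0.18 and -0.09).

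After group means were removed, Aqp4 102704_at correlated with Slc4a4 at 0.591, with S100b at 0.518 and with Glul 94852_at at -0.634 over the 18 arrays. These are descriptions of arrays that share animals and regions, and carry no test.

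**Figure D4:**
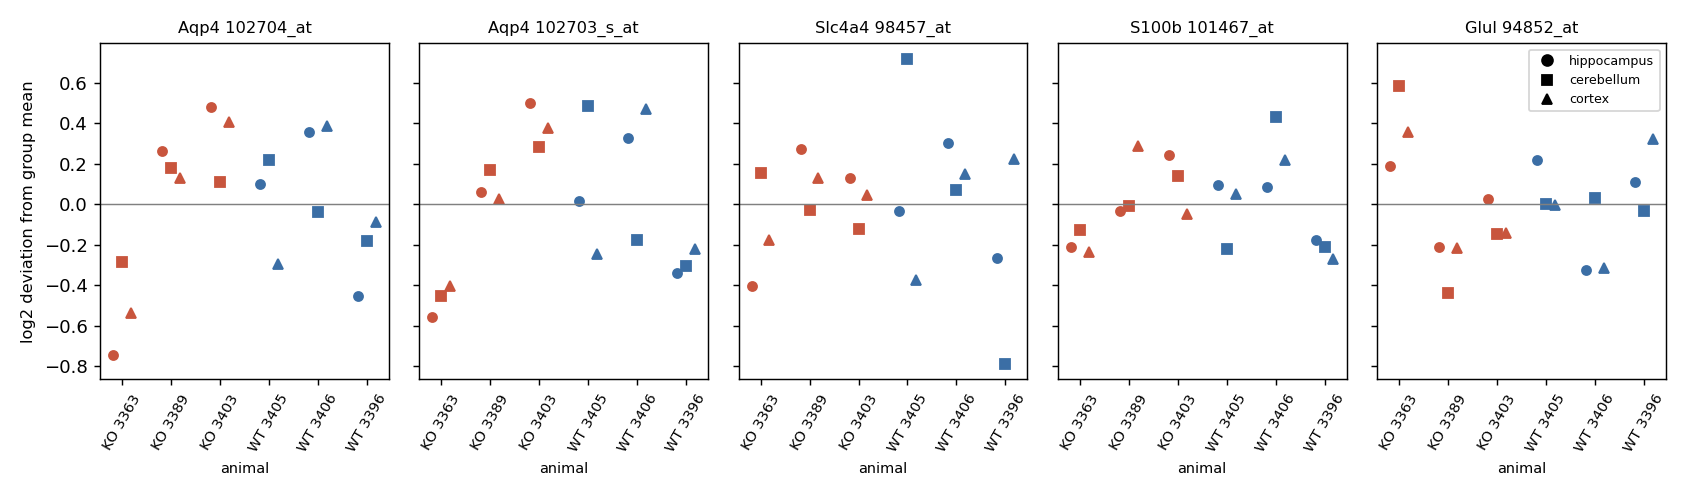
Log2 deviation of each array from its group mean for 5 probe sets, by animal, red for KO and blue for WT, with circles for hippocampus, squares for cerebellum and triangles for cortex. Mouse 3363 lies below 0 in all 3 regions for both Aqp4 probe sets and S100b and above 0 for Glul, and the Slc4a4 cerebellar arrays of mice 3405 and 3396 lie at 0.72 and -0.79.

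Other genes of glutamate and glutamine handling were taken from a list of 33, of which 18 were on the array and 15 were kept. Between KO and WT 0 of 15 were called in any region, with medians of 0.05, 0.03 and 0.03, and 0 in the mean of the regions. The genes of lowest p were Slc1a4, a neutral amino acid carrier, in hippocampus (0.32, limma adjusted p = 0.473) and Asns, asparagine synthetase, in cortex (0.24, limma adjusted p = 0.333). Between WT regions single carriers of neurons differed. Slc1a6, the carrier of Purkinje cells, averaged 955 ± 160 (SD, n = 3) in WT cerebellum, 71.0 ± 11.8 in hippocampus and 44.0 ± 7.75 in cortex, or 13.4- and 21.7-fold more in cerebellum (limma, adjusted p = 6.14e-09 and 5.74e-10). Slc1a1, a neuronal carrier, was lower in cerebellum by -1.73 and -1.41 (limma, adjusted p = 4.44e-09 and 6.35e-08). In all, 4 of 15 were called between WT cerebellum and hippocampus and 6 between cerebellum and cortex, with as many higher as lower, near the shares of all probe sets called there (29.1% and 40.8%). Slc38a2, a glutamine carrier, was higher in cerebellum by 0.62 and 0.76 (limma, adjusted p = 0.00705 and 0.00114).

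A list of 47 astrocyte genes beyond the members had 29 kept. Between KO and WT 0 of 29 were called, with medians of -0.08, -0.04 and 0.05. Car2, carbonic anhydrase, which is known in oligodendrocytes too, came nearest, lower in KO cortex at 575 ± 47.0 against 805 ± 62.5 (SD, n = 3; -0.48 ± 0.11, limma, adjusted p = 0.0632). Between WT cerebellum and cortex 20 of 29 were called, 13 higher and 7 lower in cerebellum, and against hippocampus 14, 7 in each direction, where 40.8% (17.8% higher and 23% lower) and 29.1% of all probe sets were called. Among them Gpr37l1, an orphan receptor, was higher in cerebellum than hippocampus by 0.998, while Ntsr2, a neurotensin receptor, was lower by -1.93 and Clu, clusterin, by -1.07 (limma, adjusted p = 1.87e-05, 1.26e-09 and 5.05e-07). Of 5 kept Bergmann glia markers, 4 were higher in WT cerebellum than in cortex, led by Gdf10, a growth factor of these cells, at 704 ± 132 against 44.4 ± 11.4 (SD, n = 3; limma, adjusted p = 3.34e-11). Against hippocampus 3 were higher and 1 lower. The shares of all probe sets called are those given for the astrocyte list. Between KO and WT cerebellum 0 of the 5 were called and the median was -0.30. Only 1 was above 0, Gdf10, with means of 808 in KO and 704 in WT. The summed signal of the 5 in cerebellum was 2623, 4184 and 3975 in KO mice 3363, 3389 and 3403. In the WT mice it was 3922 to 4019. The part of Bergmann glia in the S100b value of -0.50 there was not tested.

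Genes of the reactive state of astrocytes were not called either: 0 of 9 kept genes in each region, with medians of 0.40 in hippocampus, 0.04 in cerebellum and 0.17 in cortex. In hippocampus Gfap, the filament protein of reactive astrocytes, was 612 ± 198 in KO and 306 ± 92.8 in WT (SD, n = 3; 0.99 ± 0.29, limma, adjusted p = 0.293), and Osmr, the oncostatin M receptor, 75.1 ± 19.5 against 35.6 ± 2.79 (1.04 ± 0.23, limma, adjusted p = 0.112). Of the 19 kept genes of glycolysis and lactate, the pathway of Aldoc, 0 were called, and the medians were -0.09, -0.19 and 0.03. Of the 19, 5 were above 0 in hippocampus, 3 in cerebellum and 12 in cortex, where Aldoc differed by -0.09, -0.19 and -0.44. Their summed signal was 17420 to 18814 in KO hippocampus against 19505 to 20085 in WT, 16951 to 17929 against 18319 to 19413 in cerebellum, and 18144 to 19528 against 18373 to 19694 in cortex, where alone the genotypes overlapped. The kept markers of microglia (9), endothelium (7) and choroid plexus (3) had 0 calls between KO and WT in each region, and the 5 forebrain and 7 cerebellar markers likewise. Of the microglia markers, all 9 were above 0 in hippocampus and all 9 in cortex, and 5 in cerebellum. Their medians were 0.20, 0.26 and 0.09 in that order, beside 0.02, 0.0024 and 0.03 for all probe sets.

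The genes whose signal most resembled each member were found by Pearson correlation of log2 signal over the 18 arrays. Since the arrays fall into 3 regions, a high value can come from a shared order of regions alone, and it carries no test. S100b was most like Rab5if (0.982), Pbx3 (0.959) and Grin2c (0.954), and Grin2c, an NMDA receptor subunit of cerebellar granule cells and of astrocytes, averaged 644 in WT cerebellum against 207 in hippocampus and 170.5 in cortex. Aldoc was most like Tfap2b (0.946), Fnta (0.942) and Pbx3 (0.941), a homeobox gene that thus appears for both. Slc4a4 was most like Usp1 (0.930), Id4 (0.926) and Etfa (0.921), and Aqp4 like Capza1 (0.923), Hbegf (0.920) and Fbxo9 (0.911). Glul by 94852_at was most like Nr4a1 (0.847), an activity-induced transcription factor with 288 in WT hippocampus and 467 in cortex, Rab3b (0.818) and Pafah1b1 (0.798). Slc1a2 was most like Sftpc (0.856), Spdl1 (0.854) and Eif3f (0.851), and Glud1 like Mfsd14a (0.874), Dync1i2 (0.796) and Vti1b (0.787). Among the members, S100b and Aldoc resembled each other most, at 0.941 over all arrays and 0.234 after group means were removed.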

How the data were processed

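RNA was measured on Affymetrix mouse arrays in 18 samples. Per the labels, replicates are separate, numbered animals. Region was read from the sample titles, since the source label names hippocampus throughout. The authors deposited linear probe set intensity, which on all 18 arrays had the same 2% trimmed mean (150.07 to 150.08), and the software that made it is not given in the sources used. A table with 1 column per array was used, and 0 other sample columns were present.

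The 66 control probe sets among 12488 were dropped. A floor at the 20th percentile of the whole table (9.46) was set before log2. Probe sets above their array's 40th percentile on at least 3 arrays were kept (8382). The probe annotation gave 1 symbol to 10833 of the others, several to 396 and none to 1237, and all 7 measured members matched RefSeq by gene identifier. Groups were compared with limma 3.58.1 in R 4.3.3: 6 group means, 18 arrays, an intensity trend, 12 residual degrees of freedom, two-sided, with Benjamini-Hochberg adjustment over all kept probe sets and a threshold of 0.05. The mean of the regions was fitted to 1 mean per animal (4 residual degrees of freedom). An exact permutation test of 1 value on 3 and 3 animals cannot reach a p under 0.1, so none is reported. Differences are on the log2 scale of floored signal, and fold values are the same differences turned back to the linear scale.

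The 3 regions of an animal pair the samples by its number. Deviations from group means correlated with a median of 0.135 within animals and -0.0634 between animals of the same genotype. Since deviations sum to 0 within a group, the latter value follows in part from the former and is no separate baseline. The replicate block (the animal, by duplicateCorrelation, consensus correlation 0.0786) is given where it changes a call. Alternatives were quantile normalization, median scaling, a pseudocount of 16 without a floor, no filter on low signal, a filter at the 60th percentile, no trend, the replicate block, each animal left out, and the 6 arrays of a region alone.

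For each member all probe sets are named, the main one being the brightest. For each list the genes named were up to 4 past the threshold or else the 2 of lowest p, of which some are printed, and for likeness the 3 genes of highest correlation. Members and lists were chosen with earlier results of these data known.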

Additional observations from a re-analysis of the deposited data

Results flagged for a closer look

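Glud1 by 92586_at drew attention because KO minus WT had opposite signs in 2 regions, with no overlap between genotypes in either: -0.33 in hippocampus and 0.40 in cerebellum. Groups did not overlap for 17.3% of all probe sets in hippocampus and 15.3% in cerebellum. The share that did so in both regions with opposite signs was not counted. The difference between the regions' effects was 0.72 ± 0.27 (limma, adjusted p = 0.600), and the interaction over all 3 regions did not pass either (moderated F test in limma, adjusted p = 0.551). Leaving out each animal in turn and the other alternatives gave -0.43 to -0.18 in hippocampus and 0.22 to 0.57 in cerebellum. Since the genotypes did not overlap in either region, leaving out an animal could not have turned a sign. The kept signs therefore add nothing to the reason for which Glud1 was flagged.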

How the results depend on the processing

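Median scaling moved the median difference of all probe sets by 0.11 between WT cerebellum and hippocampus, 0.17 between WT cerebellum and cortex and 0.12 between KO cerebellum and hippocampus; no called member difference turned under it. The counts of called members by KO minus WT and by the moderated F tests moved by over 1.5 times in 4 cases: KO minus WT in cortex gave 1 (Aldoc) under quantile normalization and 1 with the 60th percentile filter, KO minus WT in cerebellum ranged from 0 to 1 and the WT regions from 5 to 8 when 1 animal was left out, in both cases at the extreme without mouse 3405. Over all alternatives, counts between pairs of regions ranged from 3 to 8 (WT cerebellum and hippocampus), 5 to 8 (WT cerebellum and cortex), 4 to 7 and 6 to 7 (KO cerebellum and hippocampus, and cortex) and 0 to 2 (KO hippocampus and cortex), and stayed at 0 for WT hippocampus and cortex. The shares of all probe sets called between regions under the alternatives are not given here, so these ranges have no background. With the animal as a replicate block, the count between KO hippocampus and cortex rose from 0 to 2 and that between WT cerebellum and hippocampus from 6 to 8, and 0 KO minus WT differences were called. Of the KO minus WT alternatives, 447 kept sign and side of the threshold, 36 changed sign, 3 newly passed and 0 lost a call. Of the regional ones, 644 kept both, 37 lost a call, 13 newly passed and 8 changed sign. No difference that changed sign had been called. Under quantile normalization Glud1 in the mean of the regions gave 0.0017, and under median scaling Slc1a2 gave -0.015 for KO minus WT in hippocampus and 0.0067 between WT hippocampus and cortex.

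The other sign changes came from leaving out 1 animal, and are given as lowest to highest log2 difference. For KO minus WT in hippocampus: Slc1a2 -0.092 to 0.17, Aqp4 102704_at -0.14 to 0.47 and 102703_s_at -0.32 to 0.21. In cerebellum: Glul 94852_at -0.074 to 0.44, Aqp4 102704_at -0.18 to 0.056 and 102703_s_at -0.057 to 0.34. In cortex: Glul 94852_at -0.054 to 0.29 and 161826_r_at -0.22 to 0.062, Glud1 -0.31 to 0.13, Slc4a4 -0.27 to 0.031 and Aqp4 102703_s_at -0.34 to 0.080. In the mean of the regions: Slc1a2 -0.0039 to 0.26, Glul 94852_at -0.22 to 0.11, Glud1 -0.088 to 0.070, Aqp4 102704_at -0.26 to 0.17 and 102703_s_at -0.24 to 0.19. Between regions: Glul 94852_at -0.14 to 0.18 (KO cerebellum and hippocampus) and -0.20 to 0.018 (WT hippocampus and cortex), Glud1 -0.040 to 0.41 (KO cerebellum and cortex) and -0.32 to 0.14 (WT hippocampus and cortex), Glul 161826_r_at -0.019 to 0.26 and Slc1a2 -0.034 to 0.21 (KO hippocampus and cortex), and Slc1a2 -0.26 to 0.19 (WT hippocampus and cortex). Apart from what the construction shows (fewer arrays or another set of probe sets tested), the cause of these changes was not tested. With 3 animals a group, a member difference that missed the threshold is not shown to be absent, as the width of the intervals shows. Slc1a2 and the _r and _s probe sets carry the further limits named with them.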

Other observations

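Hk1, the hexokinase that starts glycolysis in brain, had the lowest p of the glycolysis list for KO against WT within a region. In hippocampus its signal was 767, 588 and 864 in KO mice 3363, 3389 and 3403 and 1456, 1339 and 1291 in WT mice 3405, 3406 and 3396. The groups did not overlap, as for 17.3% of all probe sets in hippocampus, and the difference of -0.90 ± 0.21 did not pass (limma, adjusted p = 0.124). In cerebellum the KO values of 1479, 1298 and 1386 overlapped the WT values of 1272, 1152 and 1309, and in cortex the values ran from 746 to 1291 in KO and from 801 to 1548 in WT.

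Agt, angiotensinogen, which astrocytes make, was much higher in mouse 3363 than in the other mice, and was singled out after its values were seen. In cortex it gave 350.1 in mouse 3363, against 17.3 and 21.3 in the other KO mice and 16.7, 34.1 and 46.0 in the WT mice. In hippocampus it gave 884 against 249 and 317 in KO and 209, 211 and 304 in WT, and in cerebellum 1371 against 773 to 1021 on the other 5 arrays. The same mouse had the least Aqp4 of the KO mice in each region, and its summed choroid plexus marker signal was the lowest of the 6 arrays in hippocampus, at 509 against 1384 to 2204, and in cortex, at 117 against 265 to 787, but not in cerebellum, at 1199 against 51.3 to 1469.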
